A study of Mus musculus with 17 samples.

Results

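The genes described here are 10 markers of disease-associated, lipid-handling phagocytes of the brain: Apoe, Apoc1, Lpl, Fabp5, Trem2, Itgax, Gpnmb, Spp1, Cst7 and Lyz1. They were listed by name with earlier results of these data known, so their counts beside those of all genes are a description, and all 10 were found among the 20328 genes of the RNA-seq table and among the 26650 rows of the scRNA-seq table. The mice were wild-type ICR animals, 8 weeks old at the lesion, and the sequenced tissue was labelled brain. To make the 6-OHDA-induced PD model, 6-hydroxydopamine (10 µg/µl), a toxin that kills catecholamine neurons, had been injected into the substantia nigra of 1 side. The NDST3-treated PD model received the same lesion and, 5 days later, 2 µl of an adeno-associated virus that expresses human NDST3 from a CMV promoter, a promoter not restricted to a cell type. According to the study's methods the untreated lesioned mice received saline, so NDST3, the vector and the gene transfer cannot be told apart in these libraries. Healthy controls are labelled sham. RNA-seq comprised 2 sham libraries, 1 library of lesioned mice without NDST3 and 2 of lesioned mice with it. CUT&RUN for acetylated histone H3 at lysine 27, a mark of active promoters and enhancers, comprised 2 libraries per group, and ATAC-seq, which measures open chromatin, 1 per group. The scRNA-seq table holds 1 library each of the 6-OHDA-induced and the NDST3-treated PD model.

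Microglia, the resident phagocytes of the brain, and macrophages that enter from the blood take up dead neurons and myelin. The receptor Trem2, with its signalling partner Tyrobp, binds lipids on such debris, and cells that engage it lower their resting genes and raise a set of genes for lipid transport, lysosomes and matrix proteins. The 10 genes belong to that set. Apoe and Apoc1 are lipoprotein components, Lpl cleaves triglycerides of lipoproteins, and Fabp5 carries fatty acids inside the cell. Trem2 and Itgax (the integrin CD11c) are surface receptors, Gpnmb is a glycoprotein of lysosomes and the cell surface, and Spp1 (osteopontin) is a secreted matrix protein. Cst7 inhibits lysosomal cysteine proteases, and Lyz1 encodes lysozyme.

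On GRCm38.p6, Apoe (NCBI Gene 11816, chr7:19696244-19701310) and Apoc1 (11812, chr7:19689480-19692659) lie close together. Itgax (16411) is at chr7:128129526-128150657, Lpl (16956) at chr8:68880555-68906932, Fabp5 (16592) at chr3:10012585-10016610 and Trem2 (83433) at chr17:48346401-48352276. Gpnmb (93695) is at chr6:49036518-49058182, Spp1 (20750) at chr5:104435111-104441053, Cst7 (13011) at chr2:150570415-150578944 and Lyz1 (17110) at chr10:117287795-117292868. Promoter sequence from RefSeq was matched for 7 of the 10 genes, and Apoc1, Lpl and Fabp5 had no entry. The 250 bases before the first listed start were searched on both strands for GAGGAA, a core that the myeloid factor PU.1 can bind, for TGACTCA, a site of AP-1 factors, and for CACGTG, the E-box of lysosomal regulators. GAGGAA was found before Apoe, Trem2 and Spp1, 3 of 7, and in 23.1% of 27025 promoters. TGACTCA was found before Itgax alone, and in 4.43% of promoters, and CACGTG before 0 of 7 and in 6.05%. The 3 promoters with a match inside the last 150 bases are shown because they belong to genes that moved together below, with the matched letters in capitals. They are from chr17:48346251-48346400, chr5:104434961-104435110 and chr7:128129400-128129549, all on the plus strand, and the match starts 40 bases before the start of Trem2, 113 before that of Spp1 and 56 before that of Itgax.
Trem2: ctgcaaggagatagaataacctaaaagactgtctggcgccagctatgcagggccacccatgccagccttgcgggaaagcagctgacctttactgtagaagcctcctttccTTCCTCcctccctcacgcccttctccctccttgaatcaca
Spp1: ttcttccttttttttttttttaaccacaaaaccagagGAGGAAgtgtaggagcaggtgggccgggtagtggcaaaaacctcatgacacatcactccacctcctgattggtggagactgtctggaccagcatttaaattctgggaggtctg
Itgax: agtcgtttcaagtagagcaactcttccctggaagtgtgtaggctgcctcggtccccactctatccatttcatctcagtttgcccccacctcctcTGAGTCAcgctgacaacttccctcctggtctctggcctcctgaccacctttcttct

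Lyz1 has a near-identical neighbour, Lyz2, on chromosome 10. Their coding sequences (447 bases each in the GENCODE transcripts) were 95.1% identical, and the 150 bases before their starts were the same at 129 positions (86%). The first 150 coding bases are shown because 14 of the 22 coding differences lie in them, with the differing bases in capitals.
Lyz1: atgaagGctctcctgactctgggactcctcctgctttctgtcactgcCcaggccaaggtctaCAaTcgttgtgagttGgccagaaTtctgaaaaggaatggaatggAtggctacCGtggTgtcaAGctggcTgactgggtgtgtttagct
Lyz2: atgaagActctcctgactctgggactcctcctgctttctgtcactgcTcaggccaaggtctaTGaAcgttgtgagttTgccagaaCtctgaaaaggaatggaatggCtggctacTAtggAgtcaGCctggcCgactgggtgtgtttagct
Of the 1164 stretches of 100 bases (the read length) in the Lyz1 transcript, 24 also occur in Lyz2, so an error-free read can mostly be placed. As a share of Lyz2 counts, Lyz1 counts were 0.684% and 1.04% in sham, 1.11% in 6-OHDA and 1.07% and 1.09% with NDST3. How reads with errors were assigned is not stated. All Lyz1 values below are therefore uncertain, also where this is not repeated, as is its part in counts of the 10 genes.

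Total counts per RNA-seq library ranged from 51003699 to 70533326, of which the 10 most abundant genes made up 5.3% to 8.69%. Labels do not say whether replicates are separate animals, and p-values measure only the spread between these samples. The dopaminergic marker Th followed the labels: its log2 fold change in the 6-OHDA library against sham was -5.86 (SE 0.33, adjusted p = 0.0082, edgeR), and all 10 dopaminergic and all 10 neuronal markers of fixed lists fell. The second NDST3 library stood apart in choroid plexus markers, with a summed 1153 CPM for 6 genes against 24 to 67.5 CPM in the other 4 libraries.

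The 6-OHDA library held far more RNA of the 10 genes than either sham library. Together they made up 0.729% and 0.438% of all TPM (a level scaled for gene length and library) in sham, 3.98% in 6-OHDA and 1.58% and 2.32% with NDST3. Most of this was Apoe alone, with 6566 of 7289 and 3934 of 4383 TPM in sham and 34516 of 39825 in 6-OHDA. With NDST3 it held 13525 of 15835 and 20255 of 23189 TPM. Every one of the 10 genes had its highest level in the 6-OHDA library, intermediate levels in both NDST3 libraries and its lowest levels in both sham libraries. The share of all genes with this full order was not counted. Taken singly, 43.2% of all genes were lower in both NDST3 libraries than in 6-OHDA. Both NDST3 libraries were above both sham libraries for 26.5%. In bulk tissue, more cells of a type and more RNA per cell cannot be told apart. Levels below are CPM, counts as a share of the library, scaled by TMM factors that bring the libraries to a common depth.

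**Figure D1:**
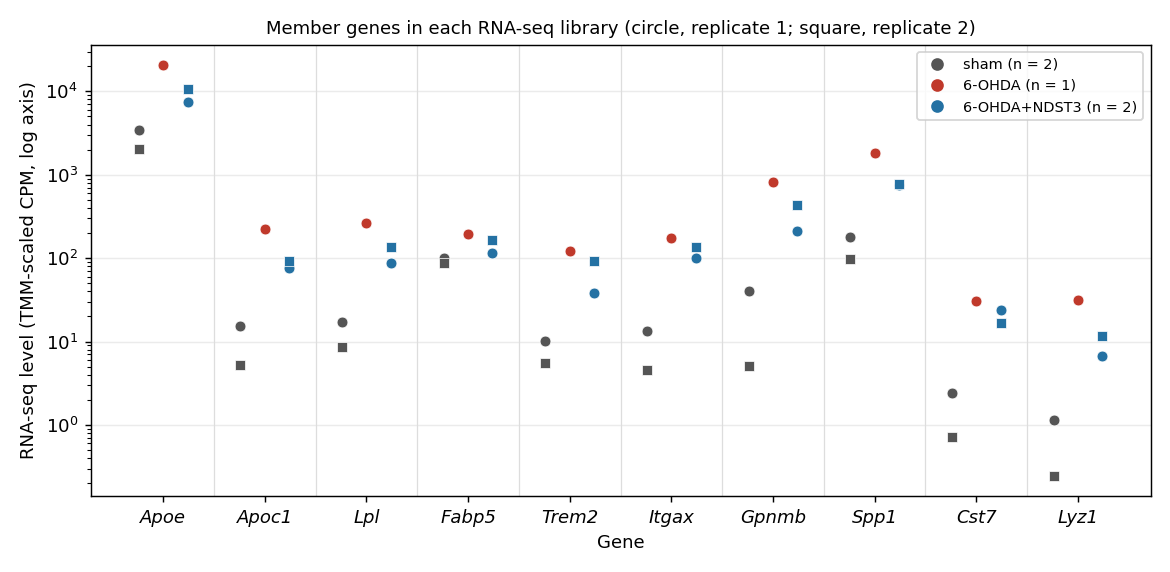
Level of each gene in each of the 5 RNA-seq libraries, in TMM-scaled CPM on a log axis; colours give the group, circles replicate 1 and squares replicate 2. For each of the 10 genes the 6-OHDA point lies above both NDST3 points, and these lie above both sham points; the 2 NDST3 points of Spp1 nearly coincide.

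Among the lipoprotein and lipid-handling genes, Apoe was at 3421 and 2056 CPM in sham, 20628 in 6-OHDA and 7361 and 10707 with NDST3. By TPM it ranked 12 and 17 among all genes in sham, 1 in 6-OHDA and 6 and 1 with NDST3. Apoc1 was at 15.4 and 5.29 CPM in sham, 221 in 6-OHDA and 76.0 and 91.4 with NDST3. The order of the groups was the same for both apolipoproteins, with no overlap. Lpl was at 17.3 and 8.72 CPM in sham, 264 in 6-OHDA and 87.4 and 137 with NDST3. Fabp5 had the smallest span, at 101 and 88.6 CPM in sham, 195 in 6-OHDA and 116 and 166 with NDST3. Its sham level was already well above that of Lpl per length, at 259 and 227 TPM against 10.4 and 5.24 TPM.

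Among the receptors, Trem2 was at 10.1 and 5.52 CPM in sham, 123 in 6-OHDA and 38.1 and 92.3 with NDST3. The 2 NDST3 libraries differed 2.42-fold for Trem2, the widest gap among the 10 genes in that group. Itgax was at 13.3 and 4.52 CPM in sham, 174 in 6-OHDA and 99.7 and 136 with NDST3. Tyrobp, the partner of Trem2, was at 23.6 and 13.4 CPM in sham, 226 in 6-OHDA and 84.4 and 107 with NDST3, in the same order of groups.

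Of the lysosomal and secreted products, Gpnmb was at 40.2 and 5.08 CPM in sham, 824 in 6-OHDA and 213 and 434 with NDST3. The sham libraries differed 7.91-fold for Gpnmb, the widest gap among the 10 genes, and both stayed below the NDST3 libraries. Spp1 was at 177 and 97.5 CPM in sham, 1838 in 6-OHDA and 746 and 772 with NDST3. Cst7 was at 2.41 and 0.724 CPM in sham, 30.6 in 6-OHDA and 23.9 and 16.8 with NDST3. It was the only one of the 10 genes that was lower in the second NDST3 library than in the first. Lyz1 was the scarcest, with 59 and 17 counts in sham, 1609 in 6-OHDA and 395 and 688 with NDST3. In CPM these are 1.15 and 0.246, then 31.2, then 6.63 and 11.5. Lyz2 was at 168 and 23.7 CPM in sham, 2804 in 6-OHDA and 619 and 1059 with NDST3. In sham, replicate 1 was above replicate 2 for each of the 10 genes, from 1.14-fold (Fabp5) to 7.91-fold.

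To ask which of these genes the lesion altered, the 6-OHDA library was compared with sham. All 10 passed an adjusted p under 0.05 and were higher, where 18.8% of the 19300 genes tested were higher by that rule. Their median log2 fold change was 4.31, against -0.00 over all genes tested. All 10 also had libraries that did not overlap in the higher direction, as had 45.3% of all genes. The adjusted p-values come from the quasi-likelihood test of edgeR, adjusted over all genes by the method of Benjamini and Hochberg. Lyz1 (5.53, SE 0.79, adjusted p = 0.0100) and Gpnmb (5.19, SE 1.17, adjusted p = 0.0265) had the largest rises on the log2 scale. Apoc1 rose by 4.43 (SE 0.59, adjusted p = 0.0091), Lpl by 4.35 (SE 0.46, adjusted p = 0.0082) and Apoe by 2.91 (SE 0.40, adjusted p = 0.0093). Cst7 rose by 4.32 (SE 0.64, adjusted p = 0.0105), Itgax by 4.3 (SE 0.60, adjusted p = 0.0097) and Trem2 by 3.98 (SE 0.59, adjusted p = 0.0106). Spp1 rose by 3.74 (SE 0.35, adjusted p = 0.0082). Fabp5, with a rise of 1.04 (SE 0.23, adjusted p = 0.0244), changed least.

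These calls assume that the single 6-OHDA library varies like the replicated groups. Without sham replicate 1 or without sham replicate 2, 0 of the 10 genes passed an adjusted p under 0.05 in edgeR's test, and 0 of all genes did (smallest adjusted p 0.0516 and 0.0832), while each gene kept a positive log2 fold change in every left-out fit, from 0.95 (the lowest for Fabp5) to 7.34 (the highest for Gpnmb).

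In the next comparison, NDST3-treated against untreated lesioned mice, all 10 genes had lower values, and 0 of 10 passed an adjusted p under 0.05 in edgeR's test, where 6.59% of all genes tested were lower by that rule. Their median log2 fold change was -1.21, against 0.00 over all genes. Both NDST3 libraries were below the 6-OHDA library for all 10 genes, as they were for 43.2% of all genes. DESeq2 gave 2 of 10 an adjusted p under 0.05, where 5194 of 19300 genes passed in either direction. Apoe, Lpl and Spp1, 3 of 10, had a fold of 2 or more with a raw p under 0.05. By that rule 8.37% of all genes were lower. That count of 3 became 5 without either sham library or without the second NDST3 library, and 1 without the first NDST3 library or with a replicate block. Spp1 had a log2 fold change of -1.28 (SE 0.34, adjusted p = 0.0642, edgeR), and lay between -1.33 and -1.25 with each replicate left out in turn. Apoe was at -1.19 (SE 0.40, adjusted p = 0.0978) and Lpl at -1.24 (SE 0.44, adjusted p = 0.112) in the same edgeR fit. Lyz1 had the lowest value, -1.78 (SE 0.70, adjusted p = 0.135, edgeR), and Apoc1 was at -1.40 (SE 0.56, adjusted p = 0.138). Gpnmb was at -1.35 (SE 1.09, adjusted p = 0.408, edgeR), with the widest error of the 10. Trem2 (-0.91, SE 0.58), Cst7 (-0.59, SE 0.61), Itgax (-0.56, SE 0.59) and Fabp5 (-0.46, SE 0.23) were closest to the untreated library, with adjusted p between 0.206 and 0.521 in edgeR. Trem2 depended most on 1 library: its value was -1.72 without the second NDST3 library and -0.41 without the first.

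The last comparison, NDST3-treated PD model against sham, is the only one with 2 libraries on each side. All 10 genes were higher in both NDST3 libraries than in both sham libraries, as were 26.5% of all genes. In edgeR's test 0 of 10 passed an adjusted p under 0.05, as did 0 of 19300 genes (0% of all genes, smallest adjusted p 0.103). At a raw p under 0.05 alone all 10 were higher, as were 9.82% of all genes. DESeq2 gave 9 of 10 an adjusted p under 0.05, where 1023 of 19300 genes passed in either direction. The median log2 fold change was 3.09, against 0.01 over all genes tested. Gpnmb was at 3.84 (SE 1.04), Lyz1 at 3.75 (SE 0.71), Itgax at 3.74 (SE 0.55) and Cst7 at 3.73 (SE 0.58). Lpl was at 3.11 (SE 0.41), Trem2 at 3.07 (SE 0.53) and Apoc1 at 3.03 (SE 0.52). Spp1 was at 2.47 (SE 0.31) and Apoe at 1.72 (SE 0.34), and Fabp5 at 0.58 (SE 0.19) was the lowest. The adjusted p-values of the 10 genes lay between 0.152 and 0.297 in edgeR. The 3 comparisons share libraries, since the single 6-OHDA library enters 2 of them and the sham libraries enter 2.

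**Figure D2:**
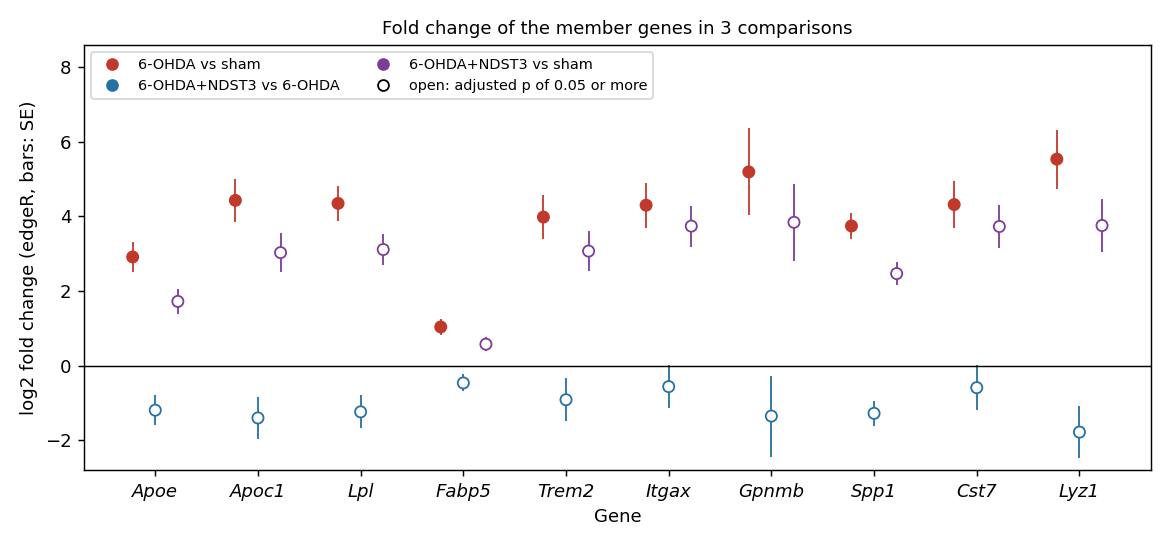
log2 fold change of each gene in the 3 comparisons, from the edgeR fit over all 5 libraries, with bars of 1 standard error; filled points have an adjusted p under 0.05. All 10 points of 6-OHDA against sham are filled and lie between 1.04 and 5.53, and the points of the other comparisons are open, below 0 for NDST3 against 6-OHDA and above 0 for NDST3 against sham.

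The wider programme of activated microglia was read from 22 partner genes that were not among the 10. Against sham, 21 of the 22 rose in the 6-OHDA library (18.8% of all genes rose) and 0 fell. Their median log2 fold change was 2.64. The galectin Lgals3 rose by 5.29, the pattern receptor Clec7a by 4.78, the chemokine Ccl6 by 4.50, the lysosomal protein Cd68 by 4.04 and Tyrobp by 3.61 (adjusted p from 0.0082 to 0.0123, edgeR). Timp2, an inhibitor of matrix proteases, was the one that did not pass (0.13, adjusted p = 0.511, edgeR). With NDST3 against 6-OHDA, 5 of the 22 fell (6.59% of all genes fell) and 0 rose, with a median of -1.09. These 5 included the tetraspanin Cd63, which fell by 1.17 (adjusted p = 0.0496), B2m of the MHC class I complex by 1.10 (adjusted p = 0.0465), the growth factor Csf1 by 1.07 (adjusted p = 0.0361) and the phagocytic receptor Mertk by 1.05 (adjusted p = 0.0331, all edgeR). Tyrobp was at -1.24 and did not pass (adjusted p = 0.0668, edgeR). The calls between the lesioned groups depend on the fit. With a replicate block or with only those groups in the fit, 0 of all genes passed in edgeR's test. Over all genes, calls were also lost without either sham library, and nearly all were lost without the first NDST3 library. Without the second NDST3 library the calls over all genes were not lost. The rises in the 6-OHDA library were likewise lost without either sham library. With NDST3 against sham, where 0 of 19300 genes passed, 15 of the 22 were higher by a fold of 2 or more with a raw p under 0.05 (4.78% of all genes), and the median was 1.51.

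Of 24 further genes of lipid uptake, storage and efflux, 23 were tested. In the 6-OHDA library 16 of them rose and 2 fell against sham, where 18.8% of all genes rose and 17.1% fell. Their median log2 fold change was 1.36. The rises were led by Apoc2, the cofactor of Lpl (5.04), the fatty acid carrier Fabp4 (4.95), and the scavenger receptors Msr1 (4.36) and Cd36 (3.35), with adjusted p from 0.0082 to 0.0223 in edgeR. The fatty acid carrier Fabp3 fell by 0.60 (adjusted p = 0.0256, edgeR). With NDST3 against 6-OHDA, 4 of the 23 fell and 1 rose (6.59% of all genes fell and 9.06% rose), with a median of -1.0. Fabp7, a fatty acid carrier of astrocytes, fell by 1.40 (adjusted p = 0.0344), the lipocalin Apod by 1.33 (adjusted p = 0.0417), the cholesterol-esterifying enzyme Soat1 by 1.20 (adjusted p = 0.0320) and the lysosomal lipase Lipa by 1.05 (adjusted p = 0.042, edgeR). As for the partner genes, none of these calls was made without either sham library, and those of NDST3 against 6-OHDA also went with a replicate block or with only those groups. With NDST3 against sham, 8 of the 23 were higher and 1 lower at a fold of 2 or more with raw p under 0.05. Of all genes, 4.78% were higher and 1.08% lower by that rule. The median of the 23 was 0.51.

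Markers of several cell types moved in the same comparisons, and their part in the values of the 10 genes was not tested. Of 10 homeostatic microglia markers, 9 rose in the 6-OHDA library, with Tmem119 at 1.35 and P2ry12 at 1.23 on the log2 scale, and their summed level was 434 and 327 CPM in sham, 2528 in 6-OHDA and 883 and 1452 with NDST3. Of 10 monocyte or macrophage markers, 5 rose, with Ccr2 at 3.40, and the sums were 369 and 150 CPM, 3727, and 932 and 1391 CPM. Lyz2 is on that list. Neutrophil markers (3 of 4 tested rose) summed to 14.2 and 10.8 CPM in sham, 108 in 6-OHDA and 37.8 and 67.2 with NDST3. Astrocyte markers (4 of 8 rose, 1 fell) summed to 7377 and 6280 CPM, 12685, and 8455 and 8911 CPM. The rise of this sum came from Gfap (2.78 on the log2 scale) and Aqp4 (2.24). Gfap was at 1246 and 572 CPM in sham and 6237 in 6-OHDA, and Aqp4 at 535 and 325, then 2026. On the log2 scale Gja1 was at 0.81, Slc1a3 at 0.55, Aldh1l1 at 0.30, Ndrg2 at -0.21, Slc1a2 at -0.68 and Aldoc at -0.78. Fibroblast or mural markers (7 of 9 rose, and 8 of 9 fell with NDST3 against 6-OHDA) summed to 541 and 354 CPM, 1656, and 273 and 361 CPM. Neuronal markers went the other way, at 7030 and 7857 CPM in sham, 2701 in 6-OHDA and 6330 and 5572 with NDST3. Among endothelial markers 3 of 7 rose, and among oligodendrocyte markers 1 of 7. Of 4 B cell markers 1 rose and 1 fell, of 3 dendritic cell markers 1 fell, and of the T cell and choroid plexus markers 0 passed. By the same rule 18.8% of all genes rose and 17.1% fell, so single calls in such short lists do not set a cell type apart. With NDST3 against 6-OHDA, all 10 homeostatic microglia markers had lower values (median -1.05) and 0 passed an adjusted p under 0.05 in edgeR's test, while 5 were lower by a fold of 2 or more with a raw p under 0.05. Of the monocyte or macrophage markers 2 fell and 6 were lower by fold and raw p, with a median of -1.63. In that comparison 6.59% of all genes fell and 8.37% were lower by fold and raw p. Marker calls in both comparisons were lost without either sham library, as above.

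In scRNA-seq, the table gives the mean of each gene in 9 clusters for both lesioned groups, as the natural log of 1 plus the count per 10000 UMIs. There is 1 library per group, so no test was made, and cell numbers are not in the table. Per the study's methods, cells with over 8000 genes were removed to limit multiplets, and doublets were not examined further here, since the table holds no single cells. Each of the 10 genes had its highest mean in cluster 3, in both groups. This cluster carries no cell type name here: by the mean of both libraries, all 10 homeostatic microglia markers were detected in it but 1 of them peaked there, while 5 of 10 monocyte or macrophage markers did. Its leading genes over the other clusters were Apoe, Spp1, Apoc1, Gpnmb, Abca1, Cd63, Timp2, Fabp5, Sash1 and Npc2, and 5 of these 10 are among the genes described. Since the cells were clustered on their expression, this is a description. Cluster 6 was microglia-like, with 9 of 10 homeostatic markers at their highest. Clusters 4, 9, 7, 1 and 5 were T cell-like, B cell-like, endothelial-like, neutrophil-like and fibroblast or mural-like, cluster 2 mixed markers of astrocytes, oligodendrocytes and choroid plexus, and cluster 8 held T cell markers at lower levels.

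In cluster 3 of the 6-OHDA library, Apoe was at 6.44, the highest mean of all genes in that cluster. Spp1 was at 2.89, Trem2 at 2.48, Apoc1 at 2.41, Fabp5 at 1.82 and Gpnmb at 1.53. Lpl followed at 1.05, Itgax at 0.87, Cst7 at 0.68 and Lyz1 at 0.17. The 10 genes differed in how far they were confined to that cluster. After converting the means back to a linear scale, in that library, Gpnmb reached at most 4.2% of its cluster 3 level elsewhere, Apoc1 5.82% and Spp1 7.13%. Apoe reached 10.8% in the microglia-like cluster. Trem2 reached 67.9% there, the widest sharing of the 10. Cst7 reached 46.9% in the T cell-like cluster and 32.9% in cluster 8, and Fabp5 32.8% in mixed cluster 2. Itgax reached 28.2% in the neutrophil-like cluster, Lpl 25.5% in the fibroblast or mural-like cluster and Lyz1 17.8% in the B cell-like cluster. In the NDST3 library the same shares were 62.0% and 29.7% for Cst7, 37.9% for Fabp5, 29.4% for Itgax, 49.4% for Lpl and 4.72% for Lyz1. Trem2 was at 76.6% in the microglia-like cluster of that library, and Lyz1 at 54.3% in the neutrophil-like cluster.

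Between the libraries, Apoe, Apoc1, Lpl and Spp1 were lower with NDST3 in all 9 clusters. A size rule of 0.25 on the deposited scale, where the mean was above 0.1 in either group, was used in place of a test. Of 64 pairs of a gene and a cluster above that minimum, 16 were lower past the rule, where 0.736% of all pairs of genes and clusters were. Higher past the rule were 0 of 64, where 0.653% of all pairs were. A fall past the rule needs a 6-OHDA mean of at least 0.25. Scarcer genes could not pass, so these shares do not compare genes of like level. In cluster 3, Spp1 went from 2.89 to 2.04, Apoc1 from 2.41 to 1.94 and Lpl from 1.05 to 0.63, and these 3 of 10 genes passed the rule there (0.345% of all genes in that cluster). Apoe in cluster 3 went from 6.44 to 6.22, Itgax from 0.87 to 0.64, Trem2 from 2.48 to 2.31, Fabp5 from 1.82 to 1.70, Gpnmb from 1.53 to 1.49 and Lyz1 from 0.17 to 0.06. Cst7 was the exception, at 0.68 and 0.72, and in the T cell-like cluster it went from 0.38 to 0.50. In the microglia-like cluster, Trem2 was at 2.13 and 2.08 and Apoe at 4.23 and 4.09, and Spp1 alone passed the rule, from 0.77 to 0.42, as did 0.212% of all genes there.

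Most of the 16 pairs lie outside cluster 3. Spp1 accounts for 7 of the 16, Apoe for 5, Apoc1 for 3 and Lpl for 1. Apoe passed in clusters 1, 4, 5, 7 and 9 but not in clusters 3 and 6, where it was highest. Its mean in the T cell-like cluster was 2.75 and 2.30 and in the B cell-like cluster 3.26 and 2.89, and Spp1 in these clusters went from 0.55 to 0.30 and from 0.72 to 0.30. Lymphocytes are not a known main source of Apoe, and the part of free RNA in the droplets was not tested. Just inside the rule was Apoc1 in cluster 1 (-0.251), and just outside were Trem2 in cluster 2 (-0.249) and Spp1 in cluster 4 (-0.248). Over the 10 genes, the median difference was -0.20 in cluster 3 and -0.05 in the microglia-like cluster, against 0.00 over all genes detected in each.

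**Figure D3:**
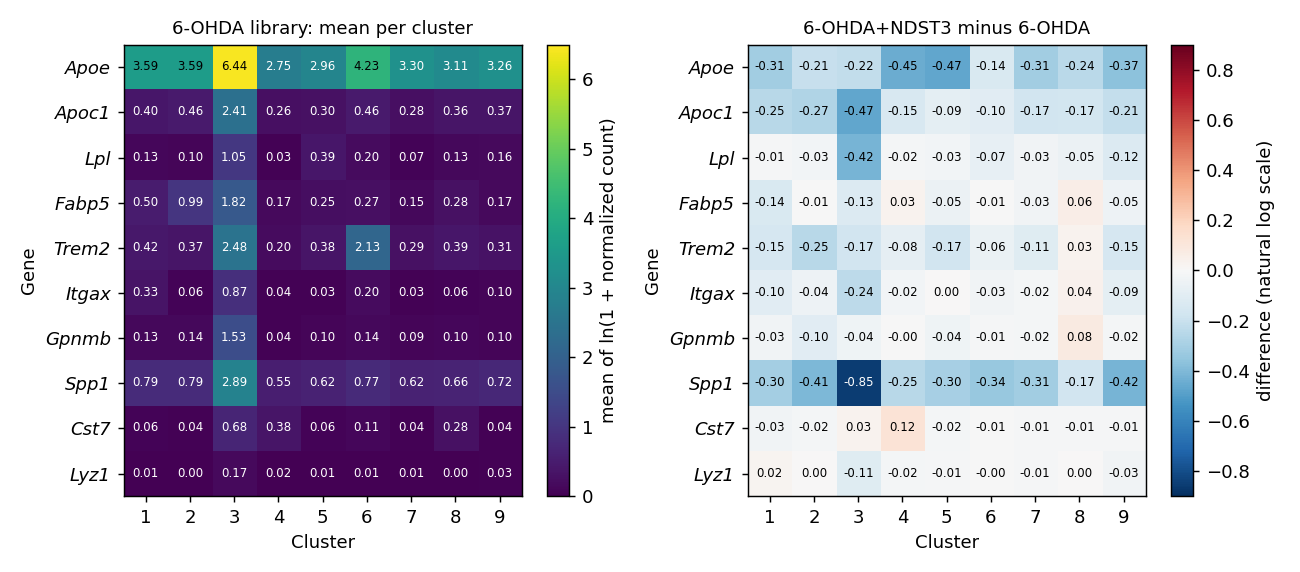
Left, mean of each gene in each of the 9 scRNA-seq clusters of the 6-OHDA library, as the natural log of 1 plus the normalized count; right, the mean in the NDST3 library minus that in the 6-OHDA library. Cluster 3 holds the highest value of every row on the left, and the lowest cell on the right is Spp1 in cluster 3 (-0.85).

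The genes with the most similar profile over the 18 cluster means (9 clusters in 2 libraries) were found among 4732 genes with a highest mean of at least 0.5, by Pearson's r, as a description without a test, since the points share 2 libraries. Trem2 was most like the complement genes C1qb, C1qa and C1qc (r = 0.996, 0.995 and 0.995). Gpnmb was most like the apolipoprotein Apoc4 (0.998), the growth factor Igf1 (0.985) and the peroxidase Gpx3 (0.961). Igf1 led the list for Apoc1 (0.989), Spp1 (0.972), Lpl (0.918) and Lyz1 (0.907). Apoe was most like the lysosomal transporter Atp13a2 (0.988), then Fam20c (0.974) and Rab7b (0.968), and Fabp5 most like Gpx3 (0.955). Itgax was most like Dcstamp (0.956), a fusion protein of myeloid cells, and Cst7, at 0.884 with Pld3, had the lowest best match of the 10.

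In the chromatin tables, which list only regions within 1000 bases of a start of transcription, 2 of the 10 genes had a region in CUT&RUN (Apoe and Fabp5) and 2 in ATAC-seq (Apoc1 and Fabp5). The others had no row in either table. Gene names and distances are given as deposited and could not be checked. Of regions with a matched gene, only 3.58% in CUT&RUN and 10.4% in ATAC-seq lay near its GRCm38 start. The H3K27ac signal 38 bases after the start of Apoe was 12.1 in sham, 6.95 in the 6-OHDA-induced and 19.9 in the NDST3-treated PD model. This is a ratio of 2.62 for NDST3 over 6-OHDA after adding 1 to both, past the 2-fold rule, as in 11% of the 11424 regions, and 96.3% of regions had a lower ratio. For Apoe the RNA was highest in the 6-OHDA library, while the histone signal was lowest in that group. Between NDST3 and 6-OHDA a lower signal with NDST3 could not be seen, since 0 of the listed regions were lower. Against sham, 6-OHDA had the lower Apoe signal and the higher Apoe RNA. At Fabp5, at position -490 from the start, the signal was 28.7 in sham, 19.4 in 6-OHDA and 25.4 with NDST3, and no pair of groups differed 2-fold. The CUT&RUN table holds 10999 regions that are higher with NDST3 than with 6-OHDA, 425 that are equal and 0 that are lower, so a higher value there does not set a region apart. The 2 libraries of a group are in 1 column, so there is no replicate check. With each column divided by its median region, the Apoe ratio was 1.94, below 2-fold.

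ATAC-seq signal at position -403 from the start of Apoc1 was 6.9 in sham, 6.5 in 6-OHDA and 14.0 with NDST3, a ratio of 2 for NDST3 over 6-OHDA after adding 1, on the 2-fold threshold, which 4.41% of the 3537 regions reached. Here too the RNA was highest in the 6-OHDA library. Fabp5 had 2 regions, with 14.5, 12.8 and 15.3 at position -820 and 5.90, 6.00 and 9.50 at -405, in the order sham, 6-OHDA and NDST3. Neither reached 2-fold in any comparison. Of all regions, 2082 were higher, 100 equal and 1355 lower with NDST3 than with 6-OHDA.

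**Figure D4:**
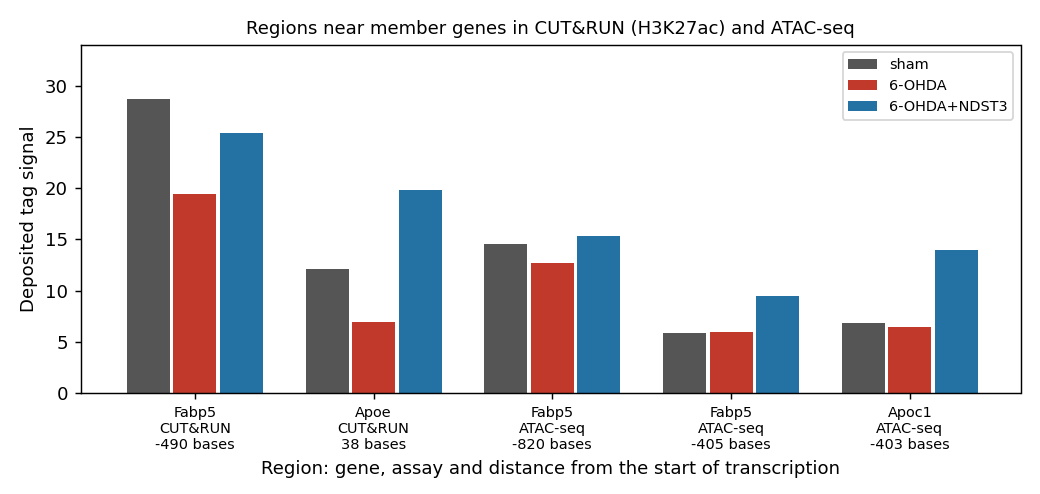
Deposited tag signal of the 5 regions listed for the genes described, in the 3 groups. Each bar is 1 deposited column, without replicates. The label gives the gene, the assay and the distance from the start of transcription in bases, as deposited and not checked. At Apoe (CUT&RUN) and Apoc1 (ATAC-seq) the NDST3 bar is the tallest, at 19.9 and 14.0. It is also the tallest at both Fabp5 regions of ATAC-seq, at 15.3 and 9.50. At Fabp5 in CUT&RUN the sham bar is the tallest, at 28.7.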

How the data were processed

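RNA-seq (5 libraries), CUT&RUN, ATAC-seq and scRNA-seq tables were used. The authors trimmed RNA-seq reads, aligned them to mm10 and deposited a read count, FPKM and TPM per gene. The table lists only genes with at least 1 count in every library. How strand was used in counting is not stated. The scRNA-seq means that the authors deposited are natural log values of normalized counts, as far as values and methods show, and 4 rows with repeated date-like names were left out. The authors deposited CUT&RUN and ATAC-seq tag signal per region in a normalization that is not stated. Only 3.58% and 10.4% of regions with a matched gene lay near its GRCm38 start, so their coordinates were not used. Their deposited gene names and distances were taken as given.

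Counts were fitted with edgeR 4.0.16 (R 4.3.3; TMM, default filter, quasi-likelihood test, group means over 5 libraries, 2 residual degrees of freedom). Alternatives were DESeq2 1.42.0 and, for FPKM on the log2 scale with 1 or 0.1 added, limma 3.58.1. TPM was not tested. Tables were joined with pandas 2.3.3 in Python 3.11.15. Named genes were all 10 members, up to 4 called genes per direction from 2 further lists, Tyrobp, Lyz2, defining cell type markers and the 3 most similar genes by cluster profile, of which some are printed. Values of 1 listed gene are not reported here. Members and lists were chosen with earlier results of these data known.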

Additional observations from a re-analysis of the deposited data

How the results depend on the processing

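No fold change of the 10 genes turned direction under 15 alternatives in 3 comparisons. Of these 450 values, 401 stayed on their side of an adjusted p of 0.05, 26 passed it and 23 no longer did. With a replicate left out in turn, the genes called ranged from 0 to 10 for 6-OHDA against sham (0 without either sham library), from 0 to 1 for NDST3 against 6-OHDA (1 without the second NDST3 library, Fabp5) and from 0 to 1 for NDST3 against sham (1 without the first NDST3 library, Trem2). DESeq2 called 2 in NDST3 against 6-OHDA and 9 in NDST3 against sham, and 5194 and 1023 of all 19300 genes. By fold and raw p in NDST3 against 6-OHDA, the count of 3 became 1 with a replicate block, 5 with only those groups, 1 with limma on log2(FPKM + 0.1), and 1 to 5 with a replicate left out. The replicate block, with the numbers of the labels, called 7 of 10 in 6-OHDA against sham and 0 in the other comparisons. Of all 19300 genes this block called 1796 in 6-OHDA against sham and 0 in the others. The numbers did not pair the libraries (r of deviations = -0.43). A crossed pairing, chosen after seeing the data, called 3 in NDST3 against 6-OHDA and 10 in NDST3 against sham. Of all 19300 genes the crossed pairing called 4795 and 1194 in these comparisons. In scRNA-seq the 16 lower pairs became 1 at a size of 0.5. With a fold rule on back-transformed means, 39 were lower and 2 higher. Shares of all pairs of genes and clusters were not counted under either rule, so these counts do not set the 10 genes apart. In CUT&RUN, 1.5-fold called 1 region in 6-OHDA against sham and 1 in NDST3 against sham, and median scaling called 0 in NDST3 against 6-OHDA. In ATAC-seq, 1.5-fold called 2 in NDST3 against 6-OHDA and 2 in NDST3 against sham, median scaling called 0 in NDST3 against 6-OHDA, and a pseudocount of 0.1 called 1 in NDST3 against sham. The causes of these shifts were not tested.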

Other observations

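Lyz2 had an ATAC-seq region at position -330 from its start, with a signal of 15.2 in sham, 8.25 in the 6-OHDA-induced and 21.7 in the NDST3-treated PD model, a ratio of 2.45 for NDST3 over 6-OHDA after adding 1. Its RNA was highest in the 6-OHDA library. In scRNA-seq, Lyz2 was lower with NDST3 in all 9 clusters, and its mean in cluster 3 went from 3.84 to 3.29. Tyrobp went from 3.36 to 3.12 in that cluster. By the mean of both libraries, 10 of the 21 listed partner genes of microglial activation had their highest mean in cluster 3. Of the 24 lipid uptake, storage and efflux genes, 9 did. The share of all genes with their highest mean there was not counted. Both lists were chosen with earlier results of these data known, so these counts are a description.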
